A study of Mus musculus with 12 samples.

Results

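The 35 genes described here serve protein folding in the endoplasmic reticulum, the compartment in which secreted and membrane proteins are made, and the unfolded protein response that watches over it. They were taken as a list of gene symbols, and all 35 were found among the 24619 symbols of the count table. By role they comprised 14 chaperones and folding helpers, 7 enzymes that form and shuffle disulfide bonds, 3 sensor and transcription factor genes, 10 genes of endoplasmic reticulum associated degradation, and Ssr1, a subunit of the complex that assists the protein-conducting channel. Of these, 34 passed the filter on low counts. Derl3, one of the degradation genes, had at most 1 count in any library and was not tested.

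RNA was sequenced from mouse cells labelled as primary cardiac fibroblasts, grown in 10% serum, starved for 12 h and then kept for 24 h in conditioned medium, which is medium already used by other cells. Those other cells were adipocytes infected with lentivirus. VEC_CM cells received medium of adipocytes carrying the vector, and OE_CM cells that of adipocytes overexpressing hsa-miR-548ay, a human microRNA. TGF_VEC_CM cells received vector medium and TGF-beta1, a signalling protein known to turn fibroblasts into matrix-producing cells, and TGF_KD_CM cells received TGF-beta1 with medium of adipocytes in which the microRNA was inhibited. All 4 groups hold 3 libraries, and conditioned medium of infected adipocytes is common to all of them. Groups follow the sample titles: in OE_CM and TGF_KD_CM the treatment field reads miR-549ay for replicate 2 and miR-550ay for replicate 3. No label tells if replicates were separate cultures or if cells with and without TGF-beta1 were prepared side by side. The p-values thus reflect library-to-library spread, possibly technical in origin.

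Proteins enter the endoplasmic reticulum unfolded through a channel in its membrane, and chaperones such as BiP, the product of Hspa5, hold them until disulfide bonds and sugar chains are in place. When unfolded protein builds up, the membrane sensors IRE1 (gene Ern1), ATF6 and PERK are released from BiP: IRE1 splices the Xbp1 messenger RNA, ATF6 is cut to free a transcription factor, and PERK slows translation and raises ATF4. XBP1 and ATF6 then switch on chaperone and degradation genes. Fibroblasts secrete collagen and other matrix proteins and therefore rely on this machinery, and TGF-beta1 is known to raise that secretion. Counts per gene do not separate spliced from unspliced Xbp1, so the splicing step itself was not measured.

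Library totals lay between 33379207 and 37226153 counts. Levels in CPM are counts scaled to library size with TMM factors, and 3 counts made no more than 0.0939 CPM, while mitochondrial messenger RNA took 1.97% to 2.29%. Of 12 listed fibroblast markers 11 were in the table, and their summed level in VEC_CM, OE_CM, TGF_VEC_CM and TGF_KD_CM was 11700 to 11800, 12300 to 12600, 10800 to 10900 and 11800 to 12200 CPM. Col1a2 gave 38.3% of that sum, whereas Dcn, which cardiac fibroblasts usually express strongly, lay between 0.03 and 0.27 CPM and Lum had at most 3 counts in any library. Thy1, another listed marker, lay between 0.14 and 0.54 CPM. The sum of 13 leukocyte markers was 47.0 to 49.8, 23.8 to 39.3, 36.4 to 39.9 and 32.6 to 35.0 CPM in the same order of groups, and that of 8 endothelial markers at most 2.25 CPM. Mesothelial markers, whose groups stood in the same order as those of Hspa5, summed to 59.1 to 65.1, 47.1 to 50.5, 91.0 to 94.6 and 75.0 to 78.7 CPM. Of 7 such markers in the table, Msln gave 99.1% of the sum, and Upk3b, Wt1 and Lrrn4 had at most 3 counts in any library. Plasma cell markers, from cells rich in endoplasmic reticulum, summed to 174 to 180, 214 to 216, 204 to 208 and 212 to 216 CPM, 99.6% of it Sdc1. Cardiomyocyte markers reached 72.6 to 77.7, 165 to 169, 107 to 118 and 99.4 to 106 CPM, 96.6% of it Tnnt2, while Tnni3, Actc1 and Myl2 had at most 3 counts. Smooth muscle markers, 96.9% of them Des, summed to 39.3 to 44.0, 22.4 to 26.6, 37.2 to 38.9 and 35.4 to 40.3 CPM, and adipocyte markers, 70.6% of them Plin4, to 1080 to 1140, 906 to 944, 844 to 919 and 1080 to 1100 CPM. Of the smooth muscle markers Acta2 lay between 0.19 and 0.74 CPM and Tagln between 0.09 and 0.43 CPM, with or without TGF-beta1. The part of other cell types in the results was not tested, and in bulk RNA fewer cells of a type and less RNA per cell cannot be told apart.

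Per length, some chaperones and disulfide enzymes were the most abundant members. On the deposited FPKM scale, which divides counts by gene length and library total, Hsp90b1, the endoplasmic reticulum form of the HSP90 chaperone, had the highest level of the 35 genes in every group, with 1090 ± 10.6 FPKM in VEC_CM (SD, n = 3). Calr, the lectin chaperone calreticulin, followed with 943 ± 23.2 FPKM, Hspa5 with 686 ± 24.1 and P4hb, protein disulfide isomerase, with 505 ± 6.37. In TGF_VEC_CM Hspa5 moved to the second place with 1210 ± 48.7 FPKM, whereas it held rank 3 in the other groups. Manf, which encodes a small secreted partner of BiP, had rank 8 in VEC_CM and rank 5 in the other 3 groups. Other chaperones ranked low, such as the J-domain gene Dnajb9 at rank 33 in VEC_CM, near the sensors Atf6 at 8.60 ± 0.346 FPKM and Ern1 at 6.20 ± 0.251 in VEC_CM. The 35 genes together took 1.58% ± 0.0109 of all counts in VEC_CM, 1.41% ± 0.0237 in OE_CM, 1.98% ± 0.0374 in TGF_VEC_CM and 1.63% ± 0.0365 in TGF_KD_CM (SD, n = 3 each). The ranges of these shares overlapped only between VEC_CM (1.57% to 1.59%) and TGF_KD_CM (1.59% to 1.66%), where they touched. The shares use raw counts without the TMM factors, which were 0.9469 to 0.9575 in OE_CM and 1.002 to 1.006 in VEC_CM. A smaller factor raises the scaled level, so the gap between OE_CM and VEC_CM is narrower in CPM. Hsp90b1 alone took 0.3% and Hspa5 0.179% of all counts in VEC_CM.

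**Figure D1:**
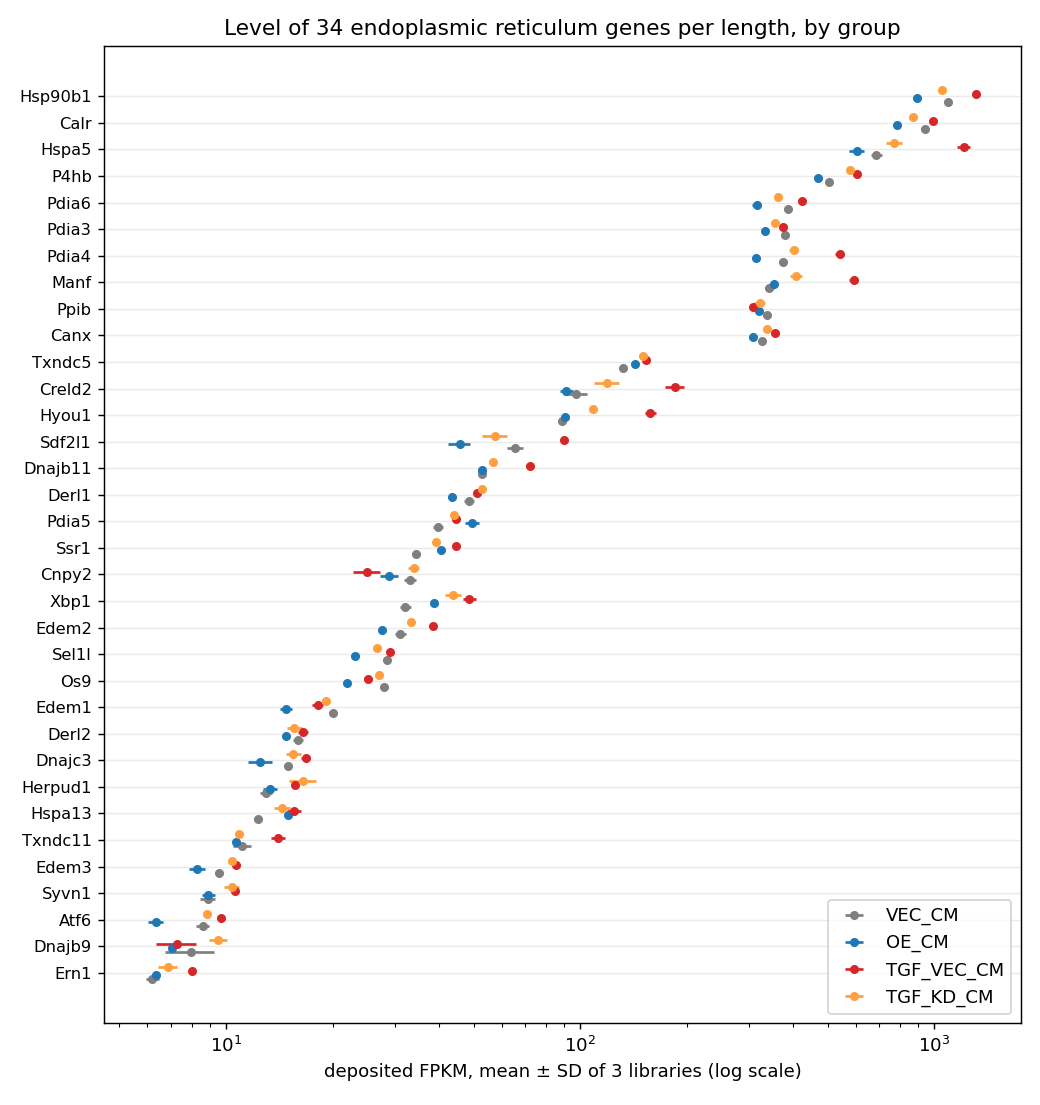
Deposited FPKM of the 34 tested genes on a log axis, mean ± SD of 3 libraries per group, ordered by the VEC_CM mean. Levels span from about those of Ern1 (6.20 FPKM in VEC_CM) to Hsp90b1 (1090 FPKM), and Hspa5, Manf, Creld2 and Hyou1 show TGF_VEC_CM set apart to the right.

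TGF_VEC_CM was compared with VEC_CM, which asks how TGF-beta1 acts on top of the same vector medium. BiP and other stress-induced chaperone genes rose most: Creld2 1.85-fold, Hyou1 1.72-fold, Hspa5 1.71-fold and Manf 1.68-fold. In all, 24 of the 34 tested members rose (70.6%) and 5 fell (14.7%) at an edgeR adjusted p under 0.05. Among all 14400 genes tested the test called 58.3%, with 28.9% higher and 29.4% lower. The median log2 fold change was 0.19 over the members and 0.004 over all genes. Changes of at least 1.5-fold were called higher in 11.3% of all genes and in 4 of the 34 members, namely those 4 chaperone genes. Rises of that size were thus about as frequent among the members as among all genes, which were not matched to the members by expression level. Falls of that size were called in 5.38% of all genes and in 0 members.

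**Figure D2:**
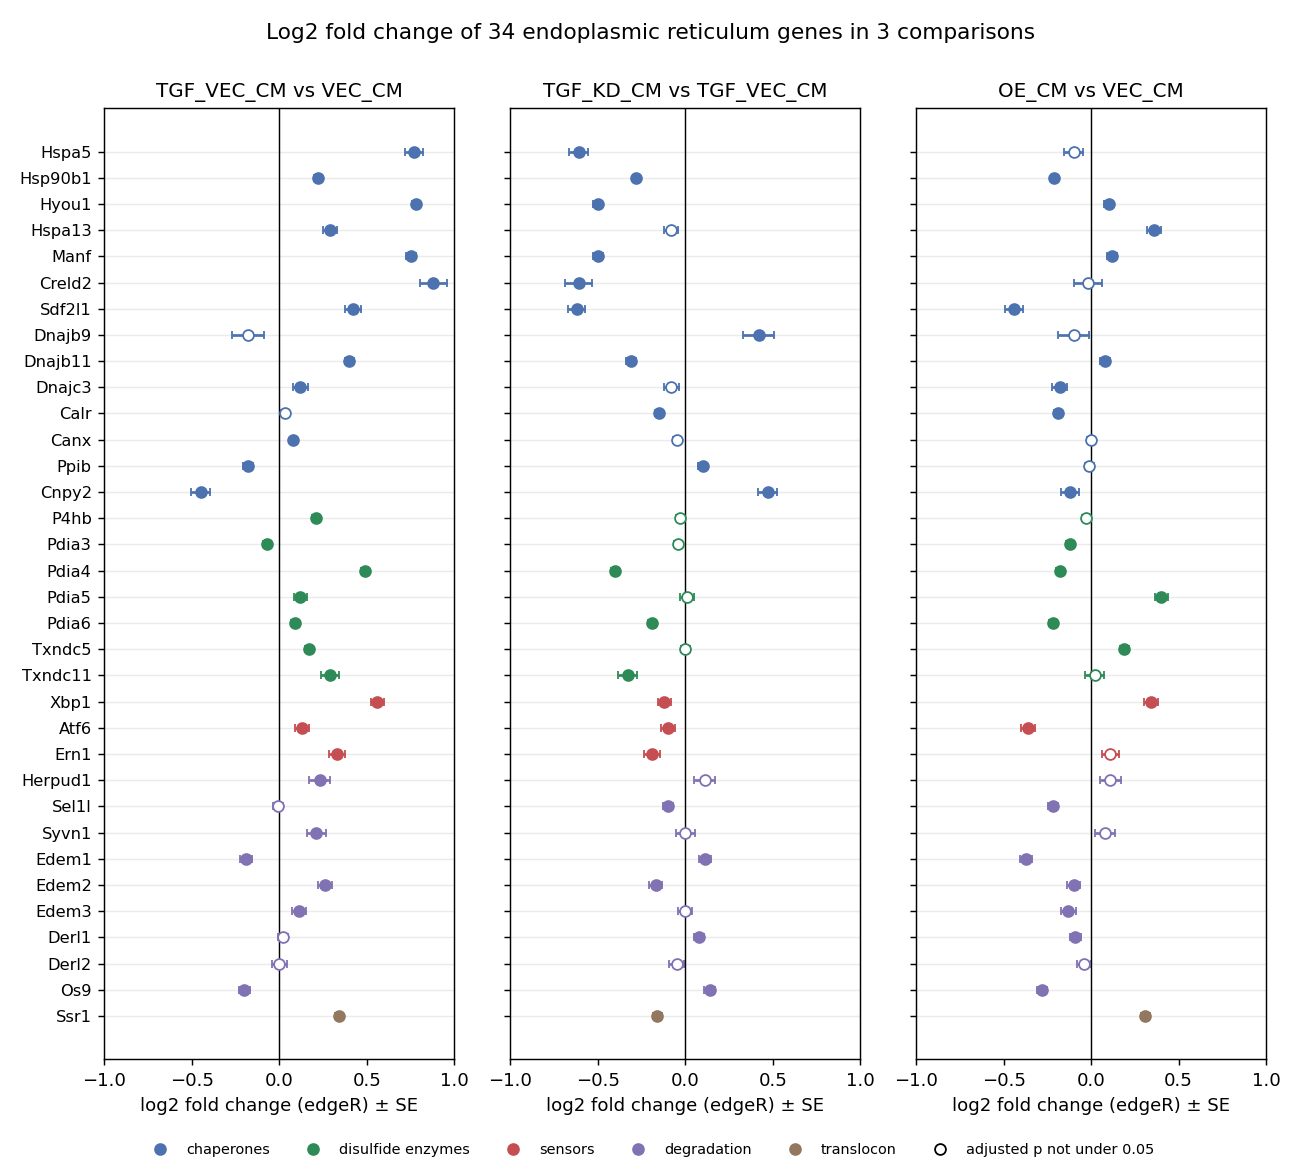
Log2 fold change ± SE of the 34 tested genes, by role, in 3 comparisons that share libraries (TGF_VEC_CM enters the left and middle panels, VEC_CM the left and right). Filled points passed the edgeR test, and Creld2, Hyou1, Hspa5 and Manf lie farthest right under TGF-beta1 (0.75 to 0.88) and at -0.50 to -0.61 in the middle panel.

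Hspa5 lies on chromosome 2, 34772090 to 34776529 (GRCm38, NCBI gene 14828). Its level was 1722, 1786 and 1854 CPM in VEC_CM, 1591, 1660 and 1740 CPM in OE_CM, 2955, 3003 and 3190 CPM in TGF_VEC_CM, and 1871, 2039 and 2079 CPM in TGF_KD_CM. The 3 TGF_VEC_CM libraries stood above all 9 others, TGF_KD_CM lay just above VEC_CM without overlap, and OE_CM overlapped VEC_CM. Within each group the level rose with the replicate number, and OE_CM lay below VEC_CM at each number. The log2 fold change with TGF-beta1 was 0.77 ± 0.0522 SE (edgeR adjusted p = 1.121e-06).

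Creld2 encodes a stress-induced protein of the endoplasmic reticulum with EGF-like domains (chromosome 15, 88819646 to 88826681, NCBI gene 76737). Its libraries held 123, 132 and 143 CPM in VEC_CM, 125, 135 and 133 in OE_CM, 228, 250 and 256 in TGF_VEC_CM, and 146, 164 and 172 in TGF_KD_CM. The pattern matched that of Hspa5, with TGF_VEC_CM on top, TGF_KD_CM between and the other two overlapping. Its log2 change with TGF-beta1, 0.88 ± 0.0778 SE, was the largest of any member (edgeR adjusted p = 8.751e-06).

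Hyou1 encodes the large HSP70-like chaperone that exchanges nucleotide on BiP (chromosome 9, 44379490 to 44392369, NCBI gene 12282). It was read at 415, 412 and 429 CPM in VEC_CM, 445, 448 and 454 in OE_CM, 721, 694 and 747 in TGF_VEC_CM, and 499, 505 and 521 in TGF_KD_CM. No group overlapped the next, and the order ran from VEC_CM over OE_CM and TGF_KD_CM to TGF_VEC_CM. The rise with TGF-beta1 was 0.78 ± 0.025 SE on the log2 scale (edgeR adjusted p = 2.348e-37).

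Manf (chromosome 9, 106888753 to 106891938, NCBI gene 74840) followed the same order. Its values were 286, 298 and 304 CPM in VEC_CM, 318, 318 and 328 in OE_CM, 490, 486 and 516 in TGF_VEC_CM, and 334, 360 and 358 in TGF_KD_CM. Again no group overlapped its neighbour, and the log2 change with TGF-beta1 was 0.75 ± 0.0275 SE (edgeR adjusted p = 1.496e-31). Exons of Manf share 146 bases with Dcaf1 on the other strand, and the strand setting of the counting is not given in the sources used here, so reads in that stretch cannot be assigned.

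Sdf2l1 encodes a partner of the J-domain chaperone Dnajb11 (chromosome 16, 17130138 to 17132383, NCBI gene 64136). Its libraries held 68.2, 72.8 and 76.0 CPM in VEC_CM, 48.9, 55.6 and 55.0 in OE_CM, 96.4, 94.4 and 98.8 in TGF_VEC_CM, and 59.0, 61.1 and 68.6 in TGF_KD_CM. Here TGF_VEC_CM was highest and OE_CM lowest, and TGF_KD_CM overlapped VEC_CM. The log2 change with TGF-beta1 was 0.42 ± 0.0483 SE (edgeR adjusted p = 3.99e-09).

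Among the other chaperones Dnajb11, which brings substrates to BiP, rose by 0.40 ± 0.028 on the log2 scale. Hspa13, an HSP70-like ATPase, rose by 0.29 ± 0.041, Hsp90b1 by 0.22 ± 0.0205, Dnajc3, a J-domain cochaperone of BiP, by 0.12 ± 0.0415 and Canx, the membrane lectin calnexin, by 0.08 ± 0.0215. Calr (log2 fold change 0.03) and the J-domain gene Dnajb9 (-0.18, edgeR adjusted p = 0.09119) did not pass the test. Ppib, cyclophilin B, fell by 0.18 ± 0.0266, with 825 bases of its exons shared with Snx22 on the other strand.

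The clearest fall was that of Cnpy2, a saposin-like protein of the endoplasmic reticulum. Its libraries were at 46.0, 45.4 and 48.8 CPM in VEC_CM, 41.1, 42.2 and 45.4 in OE_CM, 32.6, 32.2 and 37.7 in TGF_VEC_CM, and 45.4, 47.8 and 49.2 in TGF_KD_CM. TGF_VEC_CM was the lowest group without overlap, VEC_CM overlapped OE_CM and TGF_KD_CM, and OE_CM lay just under TGF_KD_CM. The log2 change was -0.45 ± 0.0536 SE (edgeR adjusted p = 6.534e-11). Of the 14 chaperones, then, 10 rose, 2 fell and 2 did not pass.

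Of the 7 disulfide enzymes 6 rose and 1 fell. Pdia4, a protein disulfide isomerase found in complexes with BiP, changed most. It was read at 990, 985 and 994 CPM in VEC_CM, 869, 874 and 879 in OE_CM, 1363, 1366 and 1436 in TGF_VEC_CM, and 1014, 1069 and 1073 in TGF_KD_CM. All 4 groups were separate, with OE_CM lowest and TGF_VEC_CM highest, and the log2 change with TGF-beta1 was 0.49 ± 0.023 SE (edgeR adjusted p = 1.761e-28). Txndc11, a thioredoxin-related membrane protein, rose by 0.29 ± 0.0526, P4hb by 0.21 ± 0.0212 and Txndc5, another thioredoxin-domain isomerase, by 0.17 ± 0.0242. The rises of Pdia5 (0.12) and Pdia6 (0.09) were small, as was the fall of Pdia3 (-0.07), the isomerase that works with calnexin and calreticulin. The fall of Pdia3 lost its call when VEC_CM replicate 1 or 3 or TGF_VEC_CM replicate 1 or 2 was left out (edgeR adjusted p = 0.082, 0.0643, 0.132 and 0.0539), and with upper-quartile factors (0.0766) or limma on log2(FPKM + 1) (0.323).

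The 3 sensor and transcription factor genes rose with TGF-beta1. Xbp1 (chromosome 11, 5520641 to 5525993, NCBI gene 22433), whose product switches on chaperone and degradation genes, was at 68.7, 73.8 and 73.3 CPM in VEC_CM, 90.2, 93.2 and 90.4 in OE_CM, 112, 103 and 103 in TGF_VEC_CM, and 92.6, 96.5 and 103 in TGF_KD_CM. VEC_CM lay below every other group, and TGF_KD_CM reached up to the lowest TGF_VEC_CM libraries. The log2 change with TGF-beta1 was 0.56 ± 0.0388 SE (edgeR adjusted p = 7.407e-20).

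Ern1, the gene of IRE1, was at 44.8, 41.6 and 44.0 CPM in VEC_CM, 46.5, 46.3 and 47.4 in OE_CM, 54.9, 53.3 and 55.2 in TGF_VEC_CM, and 49.7, 44.7 and 48.5 in TGF_KD_CM. TGF_VEC_CM was highest, and TGF_KD_CM spanned the values of OE_CM and touched those of VEC_CM. The log2 change with TGF-beta1 was 0.33 ± 0.0471 SE.

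Atf6 behaved differently from the others. It was at 73.0, 67.8 and 69.6 CPM in VEC_CM, 55.1, 57.3 and 51.4 in OE_CM, 75.7, 78.4 and 76.0 in TGF_VEC_CM, and 71.4, 71.2 and 71.9 in TGF_KD_CM. OE_CM was low and set apart, and the other 3 groups lay close together. Its change with TGF-beta1, 0.13 ± 0.0405 SE on the log2 scale, was lost without VEC_CM replicate 2 (edgeR adjusted p = 0.0504).

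Degradation genes moved in both directions with TGF-beta1. Of 9 tested, 4 rose and 2 fell, with a median log2 fold change of 0.02. Edem2, one of the proteins that trim mannose from glycoproteins bound for destruction, rose by 0.26 ± 0.0382, Herpud1, a stress-induced scaffold of the ubiquitin ligase, by 0.23 ± 0.0603 and Syvn1, the ligase itself, by 0.21 ± 0.0543. Edem3 rose by 0.11 ± 0.0409, which did not pass when the filter on low counts was dropped (edgeR adjusted p = 0.0723). Os9, a lectin that recognises the trimmed sugars, fell by 0.20 ± 0.0303 and Edem1 by 0.19 ± 0.034. Sel1l, the adaptor of the ligase, and the membrane proteins Derl1 and Derl2 had log2 fold changes between -0.01 and 0.02 and did not pass. Ssr1 rose by 0.34 ± 0.0252.

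**Figure D3:**
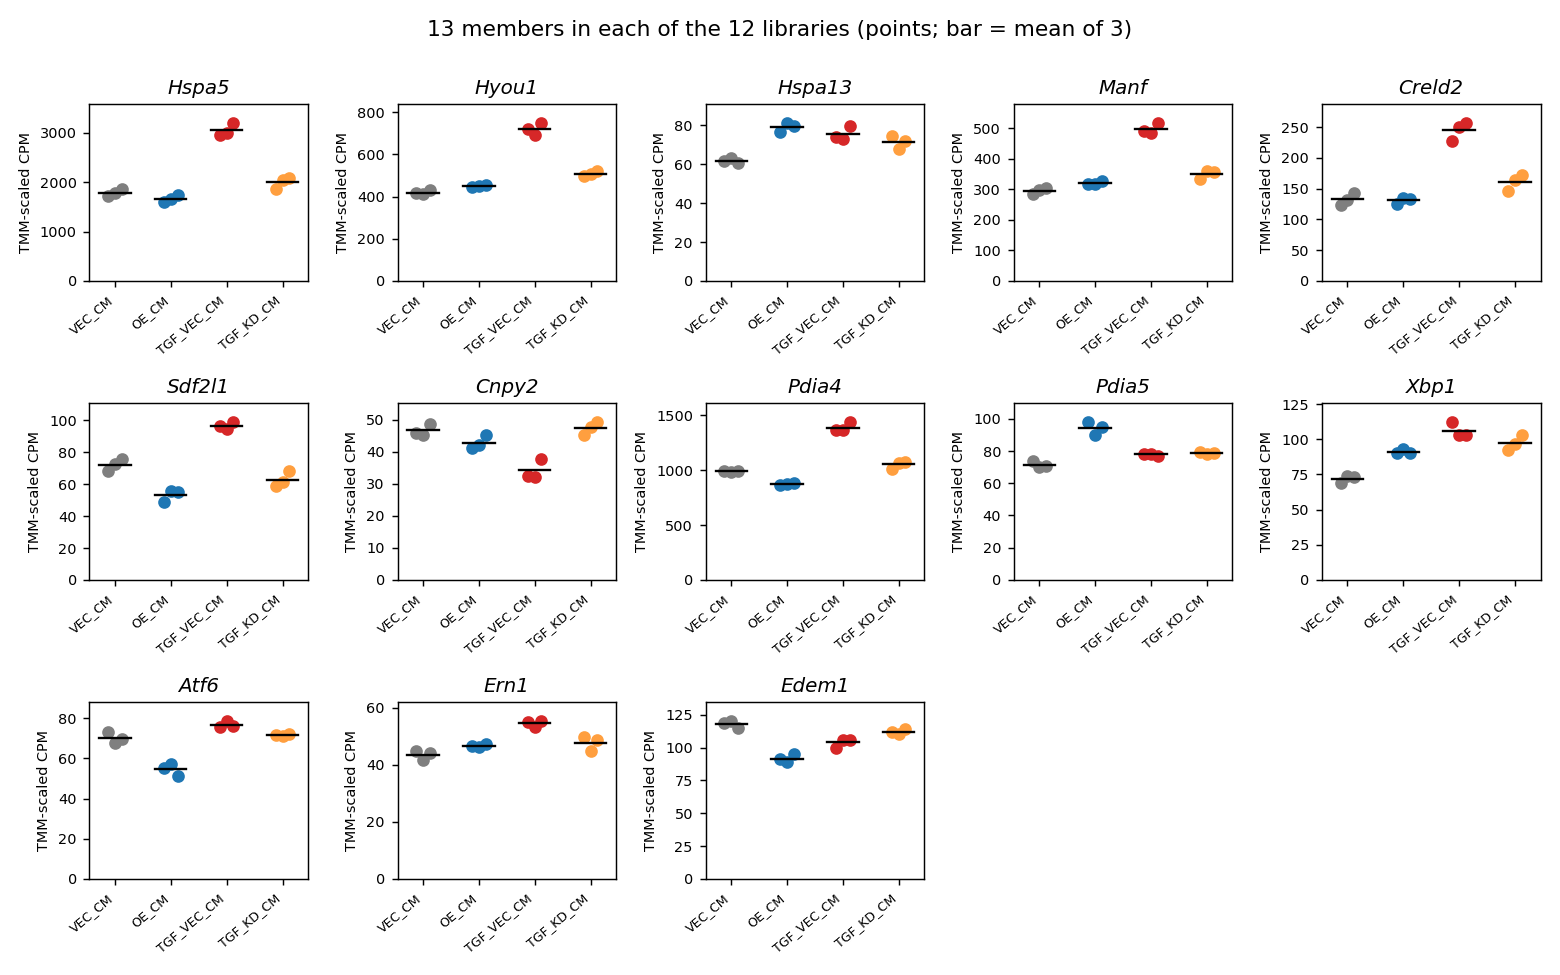
TMM-scaled CPM of 13 members in each of the 12 libraries, each panel with its own axis from 0, points for libraries and bars for means of 3. Hspa5, Hyou1, Manf, Creld2 and Pdia4 peak in TGF_VEC_CM and lie lower in TGF_KD_CM. Pdia5 peaks in OE_CM, and Cnpy2 has its minimum in TGF_VEC_CM. Hspa13 has its highest mean in OE_CM, with libraries that overlap those of TGF_VEC_CM.

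Promoters were examined for the endoplasmic reticulum stress element (ERSE), the sequence through which ATF6 and XBP1 are known to act on chaperone genes. RefSeq promoter sequences (GRCm38.p6, 250 bases before to 50 after the start) were matched for 30 of the 35 members and for 27025 genes in all. Its letters, CCAAT, then 9 bases of any kind, then CCACG, were searched on both strands. They were present in 9 of the 30 members (30%), in 37 of all 27025 genes (0.137%) and in 18 of the 11157 tested genes with a promoter (0.161%). A match describes the letters and is no evidence of binding. As the element is known from chaperone genes and the list was made of such genes, its high share among members describes the list and not these data. The 250 bases before the start of Hspa5, the strongest expressed of the strongly changed members, are shown whole with both ends of the ERSE in capitals (chr2:34771840-34772089, plus strand, 5′ to 3′).

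Hspa5: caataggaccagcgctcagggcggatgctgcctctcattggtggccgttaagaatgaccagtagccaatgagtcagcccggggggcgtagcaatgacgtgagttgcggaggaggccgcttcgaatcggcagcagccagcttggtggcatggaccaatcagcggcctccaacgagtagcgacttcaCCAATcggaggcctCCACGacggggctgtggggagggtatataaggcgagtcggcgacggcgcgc

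The Hspa5 match runs from 65 to 47 bases before the start. The other tested members with a match follow as 59-base windows centred on it, so that members that changed much and little can be compared. Capitals mark the ends of the element, which read CCAAT and CCACG when it lies on the gene's strand and CGTGG and ATTGG when it lies on the opposite one.
Creld2 (chr15:88819500-88819558, plus): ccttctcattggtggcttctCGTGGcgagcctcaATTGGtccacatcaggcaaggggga
Hsp90b1, distal (chr10:86705618-86705676, minus): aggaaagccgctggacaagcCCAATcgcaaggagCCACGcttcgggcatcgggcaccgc
Hsp90b1, proximal (chr10:86705513-86705571, minus): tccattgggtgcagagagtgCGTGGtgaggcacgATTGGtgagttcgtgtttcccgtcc
Syvn1 (chr19:6046512-6046570, plus): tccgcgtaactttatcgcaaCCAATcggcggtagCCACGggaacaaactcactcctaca
Dnajc3 (chr14:118937807-118937865, plus): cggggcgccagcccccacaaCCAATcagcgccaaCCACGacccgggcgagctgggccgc
Pdia6 (chr12:17266471-17266529, plus): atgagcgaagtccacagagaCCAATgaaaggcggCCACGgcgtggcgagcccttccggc
Canx (chr11:50325780-50325838, minus): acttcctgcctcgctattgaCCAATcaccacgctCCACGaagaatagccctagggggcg
Calr (chr8:84847055-84847113, minus): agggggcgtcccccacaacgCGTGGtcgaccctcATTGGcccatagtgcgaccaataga

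These 8 tested members share the 10 fixed letters, yet their log2 fold changes with TGF-beta1 ranged from 0.03 (Calr, not passed) through 0.08 (Canx), 0.09 (Pdia6), 0.12 (Dnajc3), 0.21 (Syvn1) and 0.22 (Hsp90b1) to 0.77 (Hspa5) and 0.88 (Creld2). The untested Derl3 held the ninth match. Pdia4, Sdf2l1 and Xbp1, which rose by 0.42 to 0.56, had a promoter in the table and no match. Hyou1 and Manf, which rose by 0.78 and 0.75, are among the members for which none of the searched letters were found, CCACG included. Some members had no promoter sequence, and which ones is not listed here. For Hyou1 and Manf a missing element therefore cannot be told from a missing sequence. Of 10 tested genes outside the list with an ERSE, 6 rose with TGF-beta1 and 1 fell, with a median log2 fold change of 0.36. In TGF_KD_CM against TGF_VEC_CM 1 rose and 4 fell. Over all 14400 genes 28.9% were higher and 29.4% lower with TGF-beta1, and 23% and 20.2% in TGF_KD_CM against TGF_VEC_CM. The 10 genes are few, and their difference from all genes was not tested. Among the 10 was Ero1b, an oxidase that recharges the disulfide isomerases, which rose by 1.13 on the log2 scale.

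A second form of the element, ERSE-II with the letters ATTGG, 1 base of any kind, then CCACG, was found in 12 of all 27025 genes (0.0444%) and in Herpud1 and Dnajb11 among the members. Of 8 tested genes outside the list with ERSE-II, 2 rose and 4 fell with TGF-beta1 (median log2 fold change -0.11), and 4 rose and 1 fell in TGF_KD_CM against TGF_VEC_CM. These counts, too, are few and stand beside the same shares of all genes. In Herpud1 ERSE-II lies 52 to 42 bases before the start, shown here because it sits in a degradation gene that rose with TGF-beta1 and did not pass the test in the other comparisons.
Herpud1 (chr8:94386357-94386407, plus): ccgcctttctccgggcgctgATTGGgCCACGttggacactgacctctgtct

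The XBP1-type element with the letters TGACGTGG was present in Txndc5 and Txndc11, against 0.714% of all genes, and the amino acid response element TGATGCAA in Cnpy2 and Herpud1, against 1.03%. The short stretch CCACG, which is contained in both ERSE forms, was in 28 of the 30 member promoters (93.3%), in 35.5% of all and in 49.8% of those of tested genes.

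**Figure D4:**
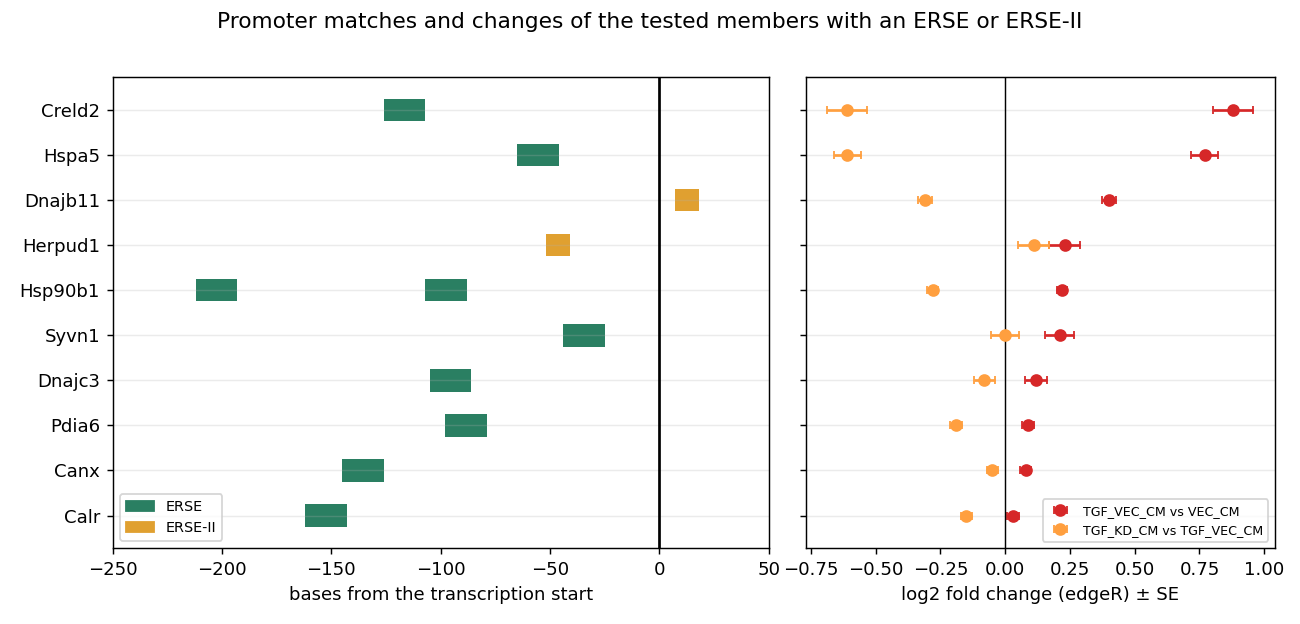
Left, position of the ERSE and ERSE-II letters in bases from the transcription start for the 10 tested members that have one. Right, their log2 fold change ± SE in 2 comparisons that share the TGF_VEC_CM libraries, ordered by the change with TGF-beta1, from Calr (0.03) to Creld2 (0.88).

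TGF_KD_CM was compared with TGF_VEC_CM, which asks what inhibiting the microRNA in adipocytes changes for fibroblasts under TGF-beta1. The chaperone genes that rose most with TGF-beta1 were lower: Hspa5 by a factor of 1.53, Creld2 by 1.52, and Hyou1 and Manf by 1.42 each. Sdf2l1, which had risen less with TGF-beta1 (1.33-fold), was also lower by a factor of 1.53. Of the 34 members 17 fell (50%) and 6 rose (17.6%), where the edgeR test called 43.3% of all 14400 genes, 20.2% lower and 23% higher. The median log2 fold change was -0.09 over the members and 0 over all genes. Falls of at least 1.5-fold were called in 4.6% of all genes and in 3 members, Sdf2l1, Hspa5 and Creld2, and rises of that size in 3.41% of all genes and in 0 members. This comparison and the one before it share the TGF_VEC_CM libraries, so high values in those libraries enter both with opposite signs.

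Of the 14 chaperones 8 fell and 3 rose. Sdf2l1 fell by 0.62 ± 0.0488 on the log2 scale (edgeR adjusted p = 1.015e-12), Hspa5 by 0.61 ± 0.052 (1.077e-05) and Creld2 by 0.61 ± 0.0767 (0.0001863). Hyou1 fell by 0.50 ± 0.0248 and Manf by 0.50 ± 0.0273, Dnajb11 by 0.31 ± 0.0279, Hsp90b1 by 0.28 ± 0.0205 and Calr by 0.15 ± 0.0222. In the per-library values, each of the first 5 had all 3 TGF_KD_CM libraries below all 3 TGF_VEC_CM libraries. These were picked as the largest falls past the threshold, so their separation follows from the choice and adds no support. The share of all genes separated in this way was not counted. Cnpy2 rose by 0.47 ± 0.0535, Dnajb9 by 0.42 ± 0.0887 and Ppib by 0.10 ± 0.0266, and the rise of Ppib was lost without TGF_KD_CM replicate 2 (edgeR adjusted p = 0.108) and with limma on log2(FPKM + 1) (0.0594). Hspa13, Dnajc3 and Canx, at -0.08 to -0.05, did not pass. Hspa13 passed without TGF_KD_CM replicate 1 or without TGF_VEC_CM replicate 1 or 2 (edgeR adjusted p = 0.02, 0.0496 and 0.0274), and with upper-quartile factors (0.0296).

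Of the 7 disulfide enzymes 3 fell and 0 rose by edgeR, with 0 rising also at an unadjusted p under 0.05, with DESeq2 and with limma. Pdia4 fell by 0.40 ± 0.0229, Txndc11 by 0.33 ± 0.0527 and Pdia6 by 0.19 ± 0.0232. P4hb, Pdia3, Pdia5 and Txndc5 had log2 fold changes between -0.04 and 0.01. P4hb stood at 1669 ± 14.4 CPM in TGF_VEC_CM and 1636 ± 40.2 in TGF_KD_CM (SD, n = 3).

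All 3 sensor and transcription factor genes fell a little: Ern1 by 0.19 ± 0.0467, Xbp1 by 0.12 ± 0.0378 and Atf6 by 0.10 ± 0.0404. The fall of Xbp1 was lost without TGF_VEC_CM replicate 1 (edgeR adjusted p = 0.06) and that of Atf6 without TGF_VEC_CM replicate 2 (0.0806) or without the filter on low counts (0.0895). Among 9 degradation genes Edem2 and Sel1l fell by 0.17 ± 0.038 and 0.10 ± 0.0288, and Os9, Edem1 and Derl1 rose by 0.14 ± 0.0304, 0.11 ± 0.0341 and 0.08 ± 0.0294. The rise of Derl1 lost its call when any of 5 libraries was left out (TGF_VEC_CM replicates 1 to 3, TGF_KD_CM replicates 1 and 3; edgeR adjusted p = 0.0776 to 0.201), and with upper-quartile factors (0.0983). That of Edem1 was lost without TGF_VEC_CM replicate 1 or TGF_KD_CM replicate 3 (0.156 and 0.0864). Without either of these libraries, and with limma on log2(FPKM + 1), 1 degradation gene rose in place of 3. The libraries of Edem1 were at 119, 120 and 115 CPM in VEC_CM, 91.3, 88.8 and 95.0 in OE_CM, 99.9, 106 and 106 in TGF_VEC_CM, and 112, 110 and 114 in TGF_KD_CM. All 4 groups were separate, with VEC_CM highest and OE_CM lowest. Ssr1 fell by 0.16 ± 0.0251.

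OE_CM was compared with VEC_CM, which asks what overexpressing the microRNA in adipocytes changes for fibroblasts without TGF-beta1. Hsp90b1, Calr, Pdia4, Pdia6 and the degradation genes Edem1, Os9 and Sel1l fell, while Pdia5, Hspa13, Xbp1 and Ssr1 rose. By edgeR 0 members were called with a change of at least 1.5-fold, against 5% of all genes higher and 9.4% lower. Of the 34 members 15 fell (44.1%) and 8 rose (23.5%), where edgeR called 54% of all genes, 25.7% lower and 28.4% higher. The median log2 fold change was -0.06 over the members and -0.008 over all genes. With upper-quartile in place of TMM factors 20 members fell and 5 rose, and the share of higher among all called genes went from 52.5% to 35.6% (38.1% with limma on log2(FPKM + 1)). VEC_CM libraries also enter the comparison with TGF_VEC_CM.

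Of the 14 chaperones 5 fell and 4 rose, against 8 and 1 with limma on log2(FPKM + 1). Sdf2l1 fell by 0.44 ± 0.051 on the log2 scale (edgeR adjusted p = 3.197e-09), Hsp90b1 by 0.21 ± 0.0205, Calr by 0.19 ± 0.0222, Dnajc3 by 0.18 ± 0.0425 and Cnpy2 by 0.12 ± 0.0529. The fall of Cnpy2 (edgeR adjusted p = 0.04421) no longer passed when VEC_CM replicate 3 or OE_CM replicate 1 or 2 was left out (0.237, 0.173 and 0.125) and with DESeq2 (0.0833). Hspa13 rose by 0.36 ± 0.0412 (edgeR adjusted p = 2.105e-11). Its libraries held 61.6, 63.2 and 60.8 CPM in VEC_CM, 76.8, 81.1 and 79.8 in OE_CM, 74.3, 73.1 and 79.9 in TGF_VEC_CM, and 74.6, 68.1 and 72.2 in TGF_KD_CM. VEC_CM was the lowest group, set apart from the other 3. Manf, Hyou1 and Dnajb11 had rises of 0.12, 0.10 and 0.08, whose calls were lost with upper-quartile factors (0.03, 0.013 and -0.01) and with limma on log2(FPKM + 1) (0.041, 0.024 and 0.001). That of Dnajb11 was also lost without OE_CM replicate 1 (edgeR adjusted p = 0.0932) or without the filter on low counts (0.0947). Hspa5, at -0.10 ± 0.0521 on the log2 scale (edgeR adjusted p = 0.1299), did not pass, but passed with upper-quartile factors (-0.191, edgeR adjusted p = 0.0124) and when only VEC_CM and OE_CM were fitted (-0.112, 0.032). It also passed with limma on log2(FPKM + 1) or log2(FPKM + 0.1) (-0.18, limma adjusted p = 0.00511 and 0.00426). With the replicate number as a block in the fit it passed too (-0.104, edgeR adjusted p = 1.27e-06). Creld2, Canx and Ppib, at -0.02 to 0, and Dnajb9, at -0.10, did not pass.

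Among the disulfide enzymes Pdia6 fell by 0.22 ± 0.0233, Pdia4 by 0.18 ± 0.0231 and Pdia3 by 0.12 ± 0.0224. Pdia5, another isomerase, went the other way. It was at 73.8, 70.0 and 71.0 CPM in VEC_CM, 97.8, 89.7 and 95.1 in OE_CM, 78.3, 78.4 and 77.2 in TGF_VEC_CM, and 79.4, 77.9 and 78.9 in TGF_KD_CM. OE_CM was high and apart, the TGF-beta1 groups overlapped, and the log2 change in OE_CM was 0.40 ± 0.0378 SE (edgeR adjusted p = 2.471e-14). Txndc5 rose by 0.19 ± 0.0243, with 224 bases of its exons shared with Bmp6 and 311 with Gm31834, both on the other strand. P4hb and Txndc11, at -0.03 and 0.02, did not pass.

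Of the sensor and transcription factor genes Xbp1 rose by 0.34 ± 0.0394 (edgeR adjusted p = 2.111e-11) and Atf6 fell by 0.36 ± 0.0419 (2.584e-11), and in both the OE_CM libraries did not overlap those of VEC_CM. Ern1, at 0.11 ± 0.048, did not pass (edgeR adjusted p = 0.05856), but passed without VEC_CM replicate 1 (0.0495) and with the replicate block (0.0466). Of the 9 degradation genes 6 fell and 0 rose by edgeR, with 0 rising also at an unadjusted p under 0.05, with DESeq2 and with limma. Without OE_CM replicate 2 only 3 fell, Edem1, Os9 and Sel1l. Edem1 fell by 0.37 ± 0.0346, Os9 by 0.28 ± 0.0306 and Sel1l by 0.22 ± 0.0291. The falls of Edem3, Edem2 and Derl1, by 0.13, 0.10 and 0.09, each lost the call when some single library was left out. For Edem3 this was OE_CM replicate 2 (edgeR adjusted p = 0.0867), for Edem2 OE_CM replicate 2 or 3 or VEC_CM replicate 3 (0.0594, 0.159 and 0.236), and for Derl1 OE_CM replicate 2 or VEC_CM replicate 1 (0.0658 and 0.0798). Herpud1 and Syvn1, at 0.11 and 0.08, and Derl2, at -0.04, did not pass. Ssr1 rose by 0.31 ± 0.0252.

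The effect of the overexpression medium was measured without TGF-beta1 and that of the inhibition medium with it. A difference or a likeness between them therefore cannot be credited to the media alone. The 2 effects share no library and were set against each other, beside the same counts over all 14400 genes. Among those, 5.56% rose in both, 4.64% fell in both, 9.56% rose in OE_CM and fell in TGF_KD_CM, and 8.69% did the reverse. By edgeR 0 members rose in both, also at an unadjusted p under 0.05, with DESeq2 and with limma, while 8 fell in both: Hsp90b1, Sdf2l1, Calr, Pdia4, Pdia6, Atf6, Sel1l and Edem2. These are 23.5% of the 34 members, 53.3% of those lower in OE_CM and 47.1% of those lower in TGF_KD_CM. Hyou1, Manf, Dnajb11, Xbp1 and Ssr1 rose in OE_CM and fell in TGF_KD_CM, which is 14.7% of the members (62.5% of those higher and 29.4% of those lower). Cnpy2, Edem1, Derl1 and Os9 fell in OE_CM and rose in TGF_KD_CM, which is 11.8% of the members (26.7% of those lower and 66.7% of those higher). Among these only Os9 kept both calls under every alternative, and among those that rose in OE_CM and fell in TGF_KD_CM only Ssr1 did. Of the members that fell in both, Atf6 and Edem2 lost a call under some alternative. With upper-quartile factors 13 members fell in both, 3 rose in OE_CM and fell in TGF_KD_CM, and 4 did the reverse, and with limma on log2(FPKM + 1) these counts were 12, 2 and 2. The difference of the 2 effects itself, OE_CM minus TGF_KD_CM, was higher in 15 members and lower in 9, where the edgeR test called 52.5% of all genes, 25.6% higher and 26.8% lower. With upper-quartile factors it was higher in 13 and lower in 13. The largest positive differences on the log2 scale were those of Manf (0.62 ± 0.039 SE), Hyou1 (0.60 ± 0.0354) and Creld2 (0.59 ± 0.111), and the largest negative ones those of Cnpy2 (-0.60 ± 0.0753), Dnajb9 (-0.52 ± 0.127) and Edem1 (-0.48 ± 0.0486).

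A further 8 lists of the same pathway and its surroundings, without the 35 genes, were read by counts. Among all 14400 genes edgeR called 28.9% higher and 29.4% lower with TGF-beta1, 23% and 20.2% in TGF_KD_CM against TGF_VEC_CM, and 28.4% and 25.7% in OE_CM. Of 14 genes of the PERK and ATF4 arm, 8 rose and 3 fell with TGF-beta1, 9 rose and 3 fell in TGF_KD_CM against TGF_VEC_CM, and 8 rose and 1 fell in OE_CM. Atf4 itself, the transcription factor of this arm, fell by 0.18 on the log2 scale with TGF-beta1 and rose by 0.23 with inhibition medium and by 0.48 with overexpression medium. Ddit3, which encodes the stress factor CHOP, was at 38.2 ± 1.23 CPM in VEC_CM, 25.23 ± 1.69 in OE_CM, 26.31 ± 1.85 in TGF_VEC_CM and 38.39 ± 1.55 in TGF_KD_CM (SD, n = 3). It thus fell with TGF-beta1 (-0.54 ± 0.058 SE) and in OE_CM (-0.60 ± 0.0588) and rose in TGF_KD_CM (0.54 ± 0.0579), opposite to Hspa5 in the comparisons with TGF_VEC_CM. Eif2ak3, the gene of PERK, rose by 0.11 and 0.18 in the 2 comparisons with TGF_VEC_CM, and its log2 fold change in OE_CM, 0.02, did not pass.

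Of 15 other disulfide and folding enzymes, 7 rose and 3 fell with TGF-beta1, 5 rose and 3 fell with inhibition medium, and 2 rose and 5 fell in OE_CM (0 and 10 with limma). Ero1b had the largest rise with TGF-beta1, from 5.443 CPM in VEC_CM, and fell by 0.48 ± 0.104 in TGF_KD_CM. Ero1a, its relative, fell by 0.52 in OE_CM. Of 16 genes listed for collagen folding and modification 8 rose and 4 fell with TGF-beta1, 7 rose and 5 fell with inhibition medium, and 8 rose and 1 fell in OE_CM (4 and 1 with limma). Within this list Rcn3, a calcium-binding protein of the secretory pathway, rose by 1.20 and P3h3, a collagen prolyl hydroxylase, fell by 0.88 with TGF-beta1, and Plod2, a lysyl hydroxylase, rose by 0.56 in OE_CM.

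Transport out of the compartment was mostly higher with TGF-beta1 and in OE_CM. Of 19 genes of endoplasmic reticulum to Golgi transport, 14 rose and 1 fell with TGF-beta1 (73.7% and 5.26%), 15 rose and 2 fell in OE_CM (78.9% and 10.5%), and 2 rose and 6 fell with inhibition medium. With limma on log2(FPKM + 1) 12 rose and 3 fell in OE_CM, and 2 rose and 11 fell with inhibition medium. Sec13 and Sec31a, which form the outer coat of the transport vesicles, rose by 0.42 and 0.37 with TGF-beta1 and by 0.36 and 0.32 in OE_CM. Of 19 channel and signal peptidase genes, 9 rose and 5 fell with TGF-beta1, and 5 rose and 8 fell with inhibition medium. In OE_CM 10 rose with 0 lower by edgeR, and 0 were lower at an unadjusted p under 0.05 or with DESeq2. With limma on log2(FPKM + 1) 5 rose and 3 fell there. Sec61a1, the channel itself, rose by 0.37 with TGF-beta1 and by 0.29 in OE_CM. The 14 chaperones had 5 lower and 4 higher in OE_CM, and the difference between these lists was not tested.

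Of 14 genes that attach and trim N-linked sugars, 7 rose and 2 fell with TGF-beta1, 6 fell with inhibition medium and 0 rose by edgeR (1 at an unadjusted p under 0.05, 0 with DESeq2 and limma). In OE_CM 7 rose and 0 fell by edgeR, with 0 lower at an unadjusted p under 0.05 or with DESeq2. With limma on log2(FPKM + 1) 5 rose and 5 fell there. Mogs, which removes the outermost glucose, rose by 0.55 in OE_CM. Of 15 other degradation genes, 4 rose and 7 fell with TGF-beta1, 6 rose and 3 fell with inhibition medium, and 10 rose and 2 fell in OE_CM (6 and 3 with limma), where 6 of the 9 degradation members fell. Ube2g2, a ubiquitin-conjugating enzyme, rose by 0.42 there. The heat shock genes of the cytosol and mitochondria, which serve folding outside the endoplasmic reticulum, had 2 higher and 7 lower of 13 with TGF-beta1, 3 higher and 1 lower with inhibition medium, and 8 higher and 3 lower in OE_CM. Hspa1b, an inducible cytosolic HSP70, fell by 1.91 in OE_CM from 4.859 CPM in VEC_CM, and its reads can be split with its near-identical copy Hspa1a.

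**Figure D5:**
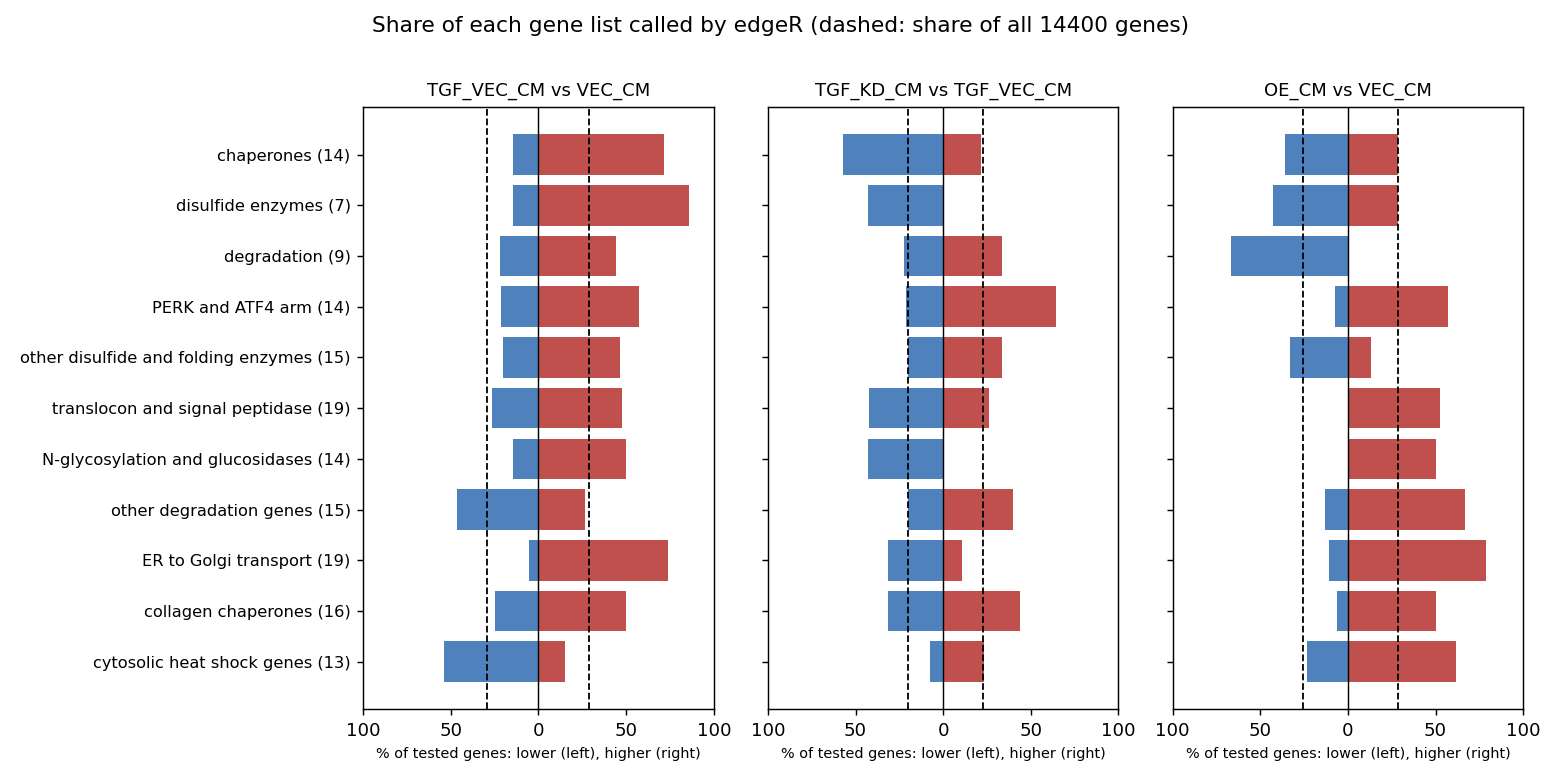
Percent of the tested genes of each list called lower (left, blue) and higher (right, red) by edgeR in 3 comparisons, with the number tested in brackets and dashed lines at the shares of all 14400 genes. Chaperones (71.4% higher) and disulfide enzymes (85.7%) extend right under TGF-beta1, and in the right panel degradation members extend left (66.7% lower) and transport genes right (78.9% higher).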

How the data were processed

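The deposited counts are whole numbers of reads per gene symbol, not normalized, and the deposited FPKM values are those counts divided by library total and gene length by the authors. The submitters' processing notes name GRCm38 (mm10) as the genome. The strand setting, aligner, counting program and gene models were not given in the sources used here. Members and gene lists were chosen with earlier results of these data known.

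Genes were kept with filterByExpr (14400 of 24619), scaled with TMM factors and fitted in edgeR 4.0.16 (R 4.3.3) with 1 robust quasi-likelihood model over all 12 libraries and a mean per group. The two-sided p-values were adjusted by Benjamini and Hochberg's method across the tested genes, with a threshold of 0.05. The standard error is the size of the log2 fold change divided by the square root of F. The script was tested on simulated data. The common biological coefficient of variation was 0.0341. FPKM was used to rank members by level. Floors cover counting error only.

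Every library's value is printed for members among the 6 largest changes past the threshold in a comparison and for the 3 sensor and transcription factor genes. At most the 3 largest changes of a further list are named, besides Atf4, Ddit3 and Eif2ak3. No replicate pair within a group agreed within sampling noise (chi-square per gene 2.96 to 4.43). Alternatives covered scaling, filters, samples in the fit, DESeq2 1.42.0, limma 3.58.1 on log2 of the deposited FPKM with pseudocounts 1 and 0.1, a replicate block and leaving out each library. Protein sequences were not used here.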

Additional observations from a re-analysis of the deposited data

Results flagged for a closer look

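Effects of the overexpression and inhibition media were compared directly, as the first minus the second on the log2 scale, and the difference passed the edgeR test in 24 members. Only the inhibition effect was measured with TGF-beta1, so medium and TGF-beta1 cannot be told apart in this difference. Among chaperones the difference was 0.51 for Hspa5, 0.07 for Hsp90b1, 0.60 for Hyou1, 0.44 for Hspa13, 0.62 for Manf, 0.59 for Creld2, 0.17 for Sdf2l1, 0.38 for Dnajb11, -0.52 for Dnajb9, -0.11 for Ppib and -0.60 for Cnpy2. Disulfide enzymes had 0.22 (Pdia4), 0.38 (Pdia5), 0.19 (Txndc5), 0.35 (Txndc11) and -0.08 (Pdia3). Sensors and transcription factors had 0.46 (Xbp1), 0.30 (Ern1) and -0.26 (Atf6). Degradation genes had -0.12 (Sel1l), -0.48 (Edem1), -0.17 (Derl1) and -0.41 (Os9), and Ssr1 had 0.47. Of these calls, that of Pdia3 was lost in 10 of the 12 fits without 1 library and in 1 other alternative, that of Sdf2l1 in 8 and 4, and that of Hsp90b1 in 2 and 4. The Hsp90b1 difference was 0.011 with upper-quartile factors (edgeR adjusted p = 0.778), and the Sdf2l1 difference 0.109 (0.188). The calls of Ppib and Sel1l were lost in 4 and 2 fits without 1 library. Groups of 3 libraries were not examined for single outlying libraries.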

How the results depend on the processing

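For single members, 1579 of 1680 values under an alternative kept direction and side of the threshold, 82 lost the call, 11 gained it and 8 changed sign; the cause was not tested. Members higher in OE_CM were 8 with TMM and 5 with upper-quartile factors and with limma on log2(FPKM + 1) or log2(FPKM + 0.1), and members higher in TGF_KD_CM were 6 against 3 with both limma fits. Sign changes on the log2 scale were -0.010 for Dnajb11 in OE_CM with upper-quartile factors, -0.009 for Pdia5 in TGF_KD_CM with those factors, -0.018 with either limma fit, -0.007 without TGF_VEC_CM replicate 3 and -0.004 without TGF_KD_CM replicate 1, and 0.046 and 0.014 for Creld2 in OE_CM without VEC_CM replicate 3 or OE_CM replicate 1. Over all single libraries left out, Creld2 in OE_CM ran from -0.072 to 0.046 and Pdia5 in TGF_KD_CM from -0.007 to 0.009. Leaving out each library gave 7 to 9 members higher and 11 to 15 lower in OE_CM, 4 to 6 and 17 to 20 in TGF_KD_CM, 23 to 24 and 4 to 5 with TGF-beta1, and 13 to 15 and 6 to 9 for the difference. Same-numbered libraries of 2 groups deviated together with r of at most 0.0436 over all tested genes and were not treated as pairs. However, 8 of 9 correlated best with their own number, a hint of a link, weak over all genes, that the labels do not give. The level of Hspa5 rose with the replicate number in all 4 groups. With the replicate block 9 members rose and 16 fell in OE_CM, where Hspa5 (adjusted p = 1.27e-06) and Ern1 (0.0466) gained the call, 6 rose and 18 fell in TGF_KD_CM, 24 rose and 5 fell with TGF-beta1, and the difference was higher in 15 and lower in 9. The difference uses all 4 groups, so a fit of only the groups compared equals the one reported. At this depth only Derl3, with at most 1 count in a library, could not be measured.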
